A study of Mus musculus with 35 samples.

Results

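The microRNAs described here are the mouse microRNAs named miR-297, miR-466, miR-467 and miR-669, measured by small RNA sequencing of the left hippocampus after pilocarpine-induced status epilepticus (SE). They were chosen by a rule on names, set with earlier results of these data known. A row belonged when its name began with 1 of these 4 numbers followed by a letter or a hyphen. Of 44884 small RNA rows, 1900 were microRNAs and 74 carried 1 of the 4 numbers. A count above 0 was found for 52 of the 74 rows, 36 had a count in at least 8 of the 16 libraries and are described, and 19 passed the filter on low counts and entered the tests. They are called cluster microRNAs here by name: of the 19, 17 have RefSeq hairpins only in Sfmbt2, 1 (the joint miR-297 3p row) has them in Sfmbt2 and elsewhere, and 1 (miR-466q) only elsewhere.

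The small RNA libraries came from C57BL/6J mice of both sexes, 6 to 7 weeks old, killed 1, 8, 24 or 120 h after seizures began, with 2 SE mice and 2 control mice at each time. SE replicate 2 at 120 h carries a different hour in its source name and was placed by its time label. SE mice received pilocarpine, a muscarinic agonist, at 350 mg/kg and then further doses until seizures set in, and control mice received 0.9% saline. Scopolamine, which limits the peripheral effects of pilocarpine, preceded both. A second set of 19 mRNA libraries covered 1 h (3 SE, 2 control), 8 h (2 SE, 3 control), 36 h (3 SE) and 120 h (3 SE), and the last 2 times shared 3 controls. Because whole hippocampus was used, fewer cells of a type and less RNA per cell cannot be told apart.

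Most of these microRNAs arise from hairpins repeated in tandem within an intron of Sfmbt2, a Polycomb group gene. The cluster is known from rodents, where Sfmbt2 is imprinted and its microRNAs are best known from the placenta and from embryonic stem cells. A hairpin is cut from the nascent transcript by Drosha with its partner Dgcr8, exported by Xpo5, trimmed by Dicer1 to a duplex with a 5p and a 3p arm, and 1 arm is loaded into an Argonaute protein. The seed near the 5′ end of the loaded arm then pairs with target mRNAs.

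Sfmbt2 (ENSMUSG00000061186) lies on the plus strand of chromosome 2 at chr2:10292137-10516880 in NCBIM37. GENCODE for that build lists 78 hairpin genes with the 4 names. Of these, 67 lay in 1 Sfmbt2 intron (chr2:10383100-10445571, intron 9, 10 or 11 depending on the transcript), all on the strand of the gene and none overlapping an exon. They spanned 51.3 kb, from position 10388571 to 10439906, and the other 11 hairpin genes lay outside Sfmbt2.

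RefSeq (GRCm38.p6) gave a mature sequence for 8 of the 74 rows, each from a hairpin outside the Sfmbt2 intron. The 5 of them with any count are shown to make visible the dinucleotide repeat in them, with the seed (bases 2 to 8) in capitals.
miR-466q: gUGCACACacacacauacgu
miR-467f: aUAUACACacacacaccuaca
miR-467g: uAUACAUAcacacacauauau
miR-466i-3p: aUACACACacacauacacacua
miR-466k: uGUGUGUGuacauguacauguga
miR-466q maps to chr3:28419988-28420007 (plus strand), miR-467f to chr11:69635419-69635439 (minus strand) and miR-467g to chr5:34732872-34732892 (minus strand). miR-466i-3p maps to chr13:17747552-17747573 and miR-466k to chr3:85467396-85467418, both on the plus strand. Over the 8 sequences, 50% to 78.95% of neighbouring base pairs read AC, CA, GU or UG (median 69.92%), against a median of 28% over the 1671 other mouse mature sequences in RefSeq, of which 2.45% reached 50%. The 5 seeds differed from one another. How reads that match several of these repeats were shared out is not given in the sources used here, so a count for 1 name may hold reads of another.

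Library totals ran from 3171341 to 7683708 counts, and 87.3% to 95.5% of each total fell on microRNAs. The marker microRNAs fitted brain: 5 neuronal and brain microRNAs (miR-124-3p among them) summed to between 273556 and 442780, which are counts scaled to the TMM-normalized library size (CPM). Choroid plexus and ependyma microRNAs, 7 of 7 detected, summed to 7414 to 13217 CPM in SE libraries and 3145 to 20414 CPM in control libraries. The 3 blood microRNAs summed to 398 to 1496 CPM in SE libraries and 391 to 574 CPM in control libraries, the top value being SE replicate 2 at 120 h. Of the endothelial pair, miR-126a-5p was at 0 throughout and miR-126a-3p stood at 6254 and 3575 CPM in SE libraries at 8 h, against 2874 and 2941 CPM in control libraries. miR-122-5p, a liver microRNA, reached 72.9 CPM in control replicate 2 at 8 h and at most 9.24 CPM in every other library. Of the oligodendrocyte pair, miR-219a-5p was at 0 throughout and miR-338-3p ran from 1.39 to 7.26 CPM. Whether the zeros of miR-126a-5p and miR-219a-5p reflect the tissue or the naming and assignment of reads was not tested. The part of these other cell types in the results was not tested. The labels give all 4 libraries at 8 h a batch of their own, so that the 8 h time and this batch cannot be told apart, while each SE and control comparison lies within 1 labelled batch. The titles of the SE libraries at 8 h nevertheless begin with another letter than those of the control libraries at 8 h, and what that letter stands for is not given in the sources used here.

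The cluster microRNAs were a minor part of the hippocampal small RNA. They took 407 to 1451 counts a library, 14199 in all, and the summed level ran from 122 to 203 CPM. A pair of 5p arms carried the largest part of it. miR-669c-5p averaged 37.9 CPM over the 16 libraries and made up 22.3% of all counts on the cluster, and miR-467e-5p averaged 33.4 CPM with 21.8%. miR-669c-5p stood at rank 291 among 1588 microRNA rows with a count, and miR-467e-5p at rank 305. Below them came miR-669o-3p/miR-669a-3p at 11.1 CPM, miR-669p-5p/miR-669a-5p at 10.6 CPM, miR-467c-5p at 8.31 CPM, miR-467d-5p at 7.93 CPM, miR-467a-5p at 7.23 CPM and miR-466g at 6.80 CPM. Rows joined by a slash are mature forms that the authors' table counts together. The other 28 described rows averaged between 0.102 and 5.37 CPM.

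By name, the miR-669 rows (29, of which 22 had a count) took 47.4% of the cluster's counts and the miR-467 rows (13, of which 11 had a count) 39.0%. The miR-466 rows, 27 of them with 15 above 0, took 9.16%, and the 5 miR-297 rows 4.46%. Rows whose RefSeq hairpins all lie in Sfmbt2 (60) held 94.5% of the counts. Rows found only elsewhere (9) held 1.71%, most of it on miR-466q (145 counts, 16 of 16 libraries) and miR-466i-5p.

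In counts 5p arms held 78.0%, against 16.04% on 3p arms. Of all counts, miR-669c-5p and miR-467e-5p alone held 22.3% and 21.8%. From 1 name the arms were often far apart: miR-669c had 3164 counts on its 5p and 15 on its 3p arm, miR-467e 3093 and 3, and miR-467c 723 and 1. miR-467d was less uneven, with 735 and 264. The order was the other way for miR-466h, with 14 counts on the 5p and 166 on the 3p arm, and for miR-669f, with 69 and 105. Joint 3p rows were also above their 5p arms for miR-669o, with 344 on the 5p arm and 1025 on the joint row. The joint miR-297 3p row had 489, against 88 for miR-297b-5p and 39 for miR-297a-5p. Counts did not follow the number of hairpins. miR-669p-5p/miR-669a-5p (14 RefSeq hairpins) had 963 counts and miR-467a-5p (10 hairpins) 666. At the same time miR-466p-3p/miR-466b-3p/miR-466c-3p (12 hairpins), miR-467a-3p (10) and miR-466o-5p/miR-466b-5p (9) stood at 0 in all 16 libraries. By sampling alone a 0 allows up to 3 counts a library, or 0.357 to 1.04 CPM. This holds only for reads that could be counted for these rows, since the sharing out of reads among repeats is not given. Why counts did not follow the number of hairpins was not tested.

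The question in each comparison was whether SE moved the cluster. With edgeR's quasi-likelihood test on all 16 libraries and Benjamini-Hochberg adjustment, 0 of the 19 tested microRNAs of these names passed the threshold of 0.05 at 1, 8, 24 or 120 h, and 0 of 19 in the mean SE effect over the 4 times. The same was true of all 1103 features tested, of which 0% were called in each of these comparisons and 0% in the F test for a difference among times. edgeR's likelihood ratio test and DESeq2 also called 0 cluster microRNAs at every time, while over all features at 8 h they called 16 and 14. A p that misses the threshold does not show that levels were equal.

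At an unadjusted p under 0.05 there were 0 cluster microRNAs at 1 h (3.81% of all features), 3 of 19, or 15.8%, at 8 h (14.1% of all features), 2, or 10.5%, at 24 h (1.27% of all features) and 0 at 120 h (2.63%). In the mean over times it was 1 (3.99% of all features), and in the F test 0 (3.81%). The share at 8 h thus lay close to that of all features, and the share at 24 h, which is 2 microRNAs, above it. The median log2 fold change of the 19, SE over control, was −0.23 at 1 h (4 up, 15 down), 0.40 at 8 h (11 and 8), −0.25 at 24 h (7 and 12) and −0.04 at 120 h (8 and 11). SE and control libraries did not overlap for 31.6% of the 19 at 1 h (28.2% of all features), 57.9% at 8 h (38.1%), 52.6% at 24 h (37.8%) and 15.8% at 120 h (24.8%).

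**Figure D1:**
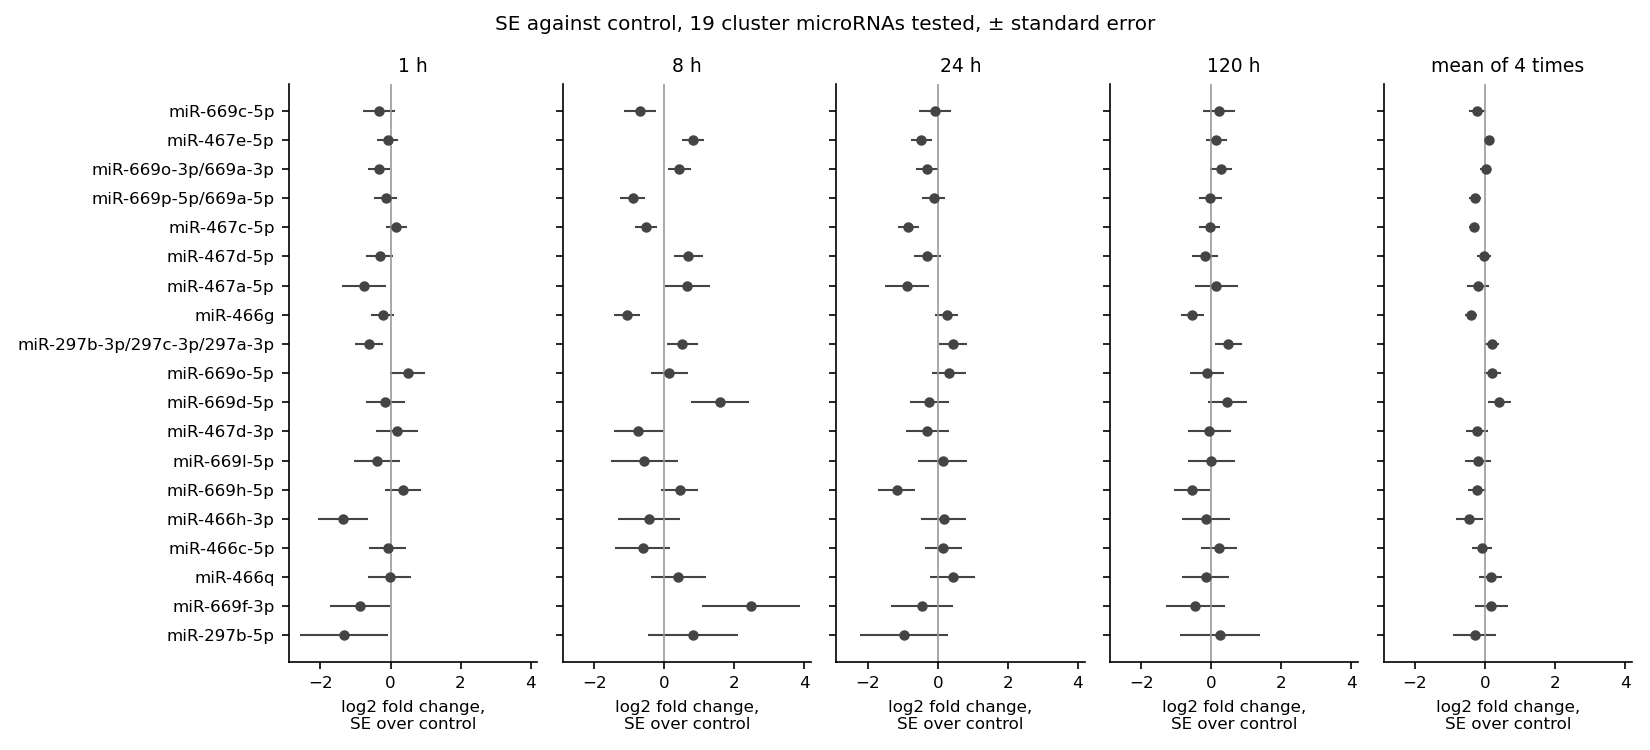
Log2 fold change, SE over control, of the 19 cluster microRNAs tested (rows, most abundant at the top) at each time and in the mean of 4 times; points are edgeR estimates and bars their standard errors. At 8 h points lie on both sides of 0, from −1.05 for miR-466g to 2.48 for miR-669f-3p, and the widest bars belong to the least abundant rows.

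miR-669c-5p, the most abundant of the cluster, overlapped between SE and control at 3 of the 4 times. At 1 h it stood at 34.95 and 21.6 CPM in SE mice, against 28.7 and 42.7 CPM in control mice. At 8 h the values were 28.8 and 49.7 CPM in SE mice and 57.8 and 68.3 CPM in control mice. At 24 h SE mice had 38.3 and 22.4 CPM and control mice 33.1 and 30.7 CPM, and at 120 h SE mice had 23.5 and 56.7 CPM and control mice 37.1 and 31.7 CPM. Only at 8 h did the groups not overlap, both SE libraries being lower. The log2 fold change there was −0.68 ± 0.46 (standard error, n = 2 each, edgeR adjusted p = 0.543).

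miR-467e-5p took opposite positions at 8 h and 24 h. At 8 h it stood at 29.7 and 19.8 CPM in SE mice, against 14.2 and 13.9 CPM in control mice. At 24 h it stood at 27.5 and 33.6 CPM in SE mice, against 39.2 and 45.3 CPM in control mice. SE libraries were thus both higher at 8 h and both lower at 24 h. The log2 fold changes were 0.82 ± 0.31 at 8 h (unadjusted p = 0.0209, edgeR adjusted p = 0.274) and −0.47 ± 0.30 at 24 h (adjusted p = 1). At 1 h SE mice had 36.2 and 27.9 CPM and control mice 37.3 and 30.2 CPM, and at 120 h SE mice had 53.9 and 40.2 CPM and control mice 44.3 and 41.0 CPM, with overlap at both times. The F test for a difference among times gave this microRNA the smallest p of the cluster, 0.0658 (edgeR adjusted p = 0.872).

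miR-466g had the smallest p at 8 h and in the mean over times. In SE mice at 8 h it stood at 1.62 and 3.16 CPM (9 and 15 counts), against 4.36 and 5.55 CPM (16 and 16 counts) in control mice. Both SE libraries were lower there, with a log2 fold change of −1.05 ± 0.38 (unadjusted p = 0.0165, edgeR adjusted p = 0.268). It was −0.58 without SE replicate 1 and −1.58 without SE replicate 2 (edgeR adjusted p = 0.627 and 0.0611). They were also lower at 120 h, with 5.62 and 5.90 CPM in SE mice and 8.77 and 8.08 CPM in control mice, and at 1 h, with 7.57 and 6.66 CPM in SE mice and 7.62 and 9.05 CPM in control mice. At 24 h the order was not kept: SE mice had 11.2 and 7.75 CPM and control mice 8.82 and 7.03 CPM, which overlap. Over the 4 times the mean log2 fold change was −0.39 ± 0.17 (8 SE and 8 control mice, unadjusted p = 0.0409, edgeR adjusted p = 0.938).

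Both arms named miR-669a were counted in joint rows and they went different ways at 8 h. miR-669p-5p/miR-669a-5p stood at 5.04 and 2.95 CPM in SE mice, against 8.72 and 6.24 CPM in control mice. miR-669o-3p/miR-669a-3p stood at 6.66 and 5.48 CPM in SE mice, against 3.82 and 5.20 CPM in control mice. For the 5p row both SE libraries were lower (log2 fold change −0.90 ± 0.35, unadjusted p = 0.0267, edgeR adjusted p = 0.289), and for the 3p row both were higher (0.44 ± 0.34, adjusted p = 0.593). The difference between the 2 rows was not tested. At the other times the 5p row ran from 9.84 to 15.95 CPM in SE mice and from 10.9 to 14.4 CPM in control mice, and the 3p row from 8.32 to 15.95 CPM in SE mice and from 11.2 to 18.01 CPM in control mice.

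miR-467c-5p had the smallest p at 24 h. SE mice had 5.22 and 5.34 CPM, against 10.01 and 8.92 CPM in control mice. Both SE libraries lay well below both controls, with a log2 fold change of −0.84 ± 0.30 (unadjusted p = 0.0179, edgeR adjusted p = 1). At 8 h SE mice had 8.82 and 6.95 CPM and control mice 12.3 and 10.4 CPM, again without overlap. The groups overlapped at 1 h (5.59 and 7.95 CPM in SE mice, 7.15 and 4.89 CPM in control mice) and at 120 h (10.2 and 9.19 CPM in SE mice, 11.0 and 9.04 CPM in control mice). The mean log2 fold change over the 4 times was −0.31 ± 0.15 (edgeR adjusted p = 0.938).

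miR-467a-5p stood apart in single libraries at 2 of the 4 times. At 8 h it stood at 15.3 and 2.95 CPM in SE mice, against 6.00 and 5.55 CPM in control mice, so that SE replicate 1 was the highest and SE replicate 2 the lowest of all 16 libraries. At 1 h it stood at 4.50 and 4.07 CPM in SE mice, against 10.7 and 3.62 CPM in control mice. The groups overlapped at both times and at 120 h, where SE mice had 9.08 and 10.8 CPM and control mice 8.54 and 9.43 CPM. At 24 h SE mice had 3.81 and 4.99 CPM and control mice 9.61 and 6.69 CPM, with no overlap and a log2 fold change of −0.89 ± 0.64 (edgeR adjusted p = 1).

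miR-467d-5p had a similar order at 24 h, with 7.63 and 8.09 CPM in SE mice and 8.96 and 10.5 CPM in control mice. At 8 h it had 7.02 and 6.53 CPM in SE mice and 4.91 and 3.47 CPM in control mice. SE libraries were lower at 24 h and higher at 8 h, with log2 fold changes of −0.30 ± 0.38 and 0.68 ± 0.42 (edgeR adjusted p = 1 and 0.491). Its values overlapped at 1 h (7.75 and 6.47 CPM in SE mice, 11.9 and 5.61 CPM in control mice) and at 120 h (11.4 and 6.42 CPM in SE mice, 9.66 and 10.6 CPM in control mice).

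**Figure D2:**
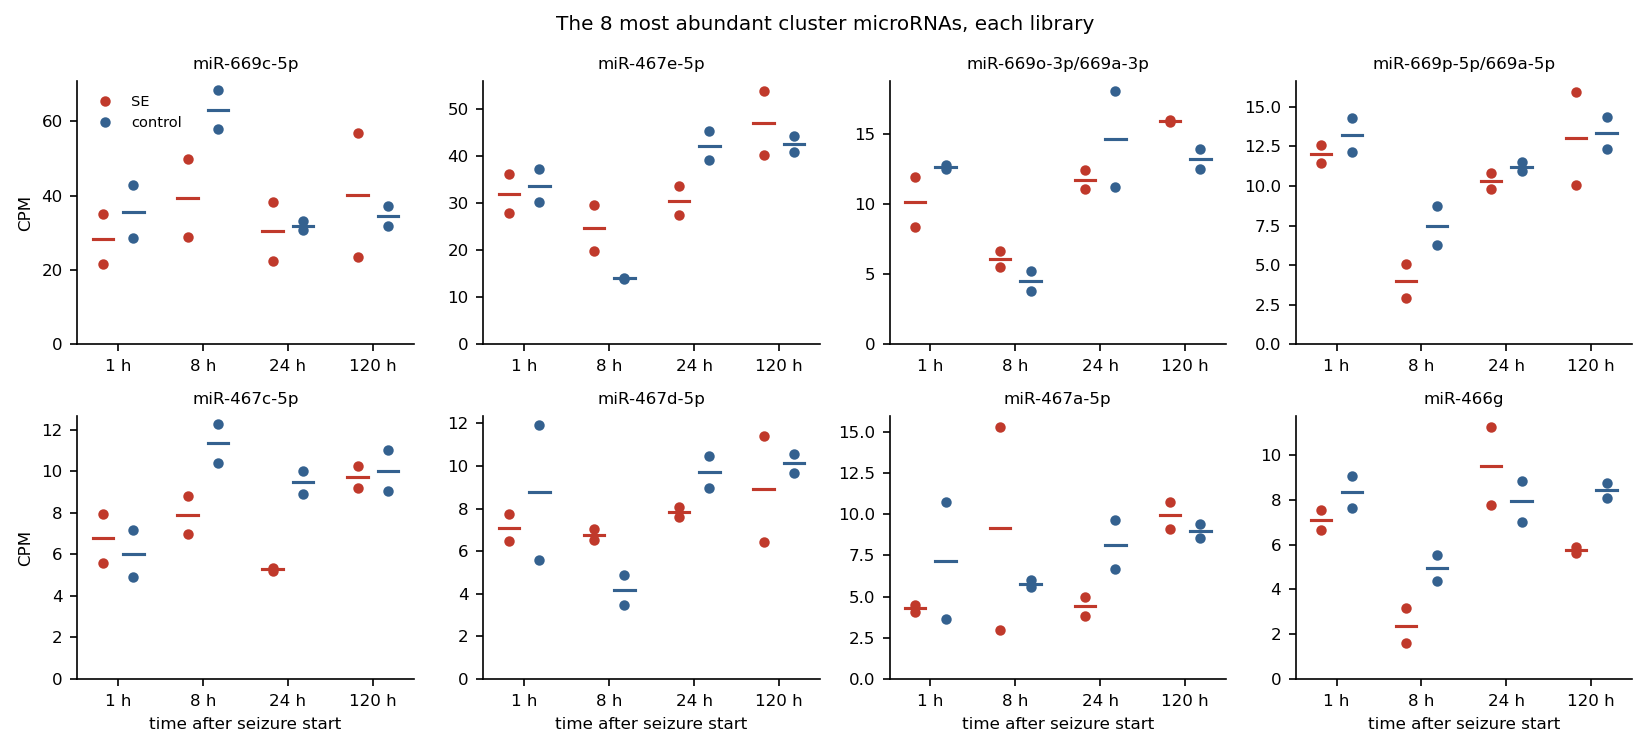
CPM of the 8 most abundant cluster microRNAs in each small RNA library by time; each point is 1 mouse, SE (red) left of control (blue), and the bars are means of 2. miR-669o-3p/miR-669a-3p and miR-466g sit lowest at 8 h in both groups, while miR-669c-5p has its highest values, 57.8 and 68.3 CPM, in the control mice at 8 h.

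Among the less abundant members, miR-466h-3p had the smallest p at 1 h, with 1.62 and 0.370 CPM (9 and 2 counts) in SE mice and 2.02 and 3.26 CPM (17 and 18 counts) in control mice. SE libraries were both lower, and the log2 fold change of −1.36 ± 0.72 did not pass (edgeR adjusted p = 0.965). It was −2.77 without SE replicate 1 and −0.73 without SE replicate 2. miR-297b-3p/miR-297c-3p/miR-297a-3p, counted as 1 row, was lower at 1 h (3.78 and 4.25 CPM in SE mice, 7.26 and 5.07 CPM in control mice). It was higher at 24 h (6.63 and 6.03 CPM in SE mice, 4.74 and 4.63 CPM in control mice), again without overlap. Its log2 fold changes were −0.62 ± 0.40 and 0.43 ± 0.40 (adjusted p = 0.995 and 1). miR-669h-5p stood at 1.00 and 1.21 CPM in SE mice at 24 h, against 2.63 and 2.40 CPM in control mice, a log2 fold change of −1.17 ± 0.53 (unadjusted p = 0.0489, edgeR adjusted p = 1) that rests on 5 and 7 against 20 and 14 counts.

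The summed level of all 74 rows is given beside the single rows. The largest part of it is miR-669c-5p and miR-467e-5p, so it does not show whether the members moved together. At 1 h the sum was 162 and 124 CPM in SE mice, against 173 and 161 CPM in control mice. At 8 h it was 124 and 122 CPM in SE mice, against 133.3 and 141 CPM in control mice, and at 24 h 153 and 142 CPM in SE mice, against 168 and 175 CPM in control mice. SE libraries were the lower ones without overlap at 8 h and 24 h, and overlapped controls at 1 h and 120 h (191 and 203 CPM in SE mice, 196 and 170 CPM in control mice). The log2 ratios of the means, SE over control, were −0.22, −0.16, −0.21 and 0.11 at 1, 8, 24 and 120 h, given without a test. The 8 h ratio turned on miR-669c-5p: without it the ratio was 0.18.

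By name, the difference at 24 h lay mostly on the miR-467 rows, which summed to 47.0 and 55.1 CPM in SE mice, against 71.5 and 75.5 CPM in control mice. At 8 h the miR-466 rows summed to 5.94 and 5.90 CPM in SE mice, against 8.99 and 9.71 CPM in control mice. The miR-669 rows at 8 h summed to 48.6 and 72.9 CPM in SE mice, against 82.0 and 86.4 CPM in control mice, and the miR-467 rows to 63.4 and 37.5 CPM in SE mice, against 38.4 and 39.5 CPM in control mice. At 8 h SE libraries were thus lower for 2 of the names and on both sides of control for miR-467. Most of the miR-669 sum there was miR-669c-5p, with 28.8 and 49.7 CPM in SE mice and 57.8 and 68.3 CPM in controls. The miR-669 sum thus does not show whether the other miR-669 rows were lower.

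**Figure D3:**
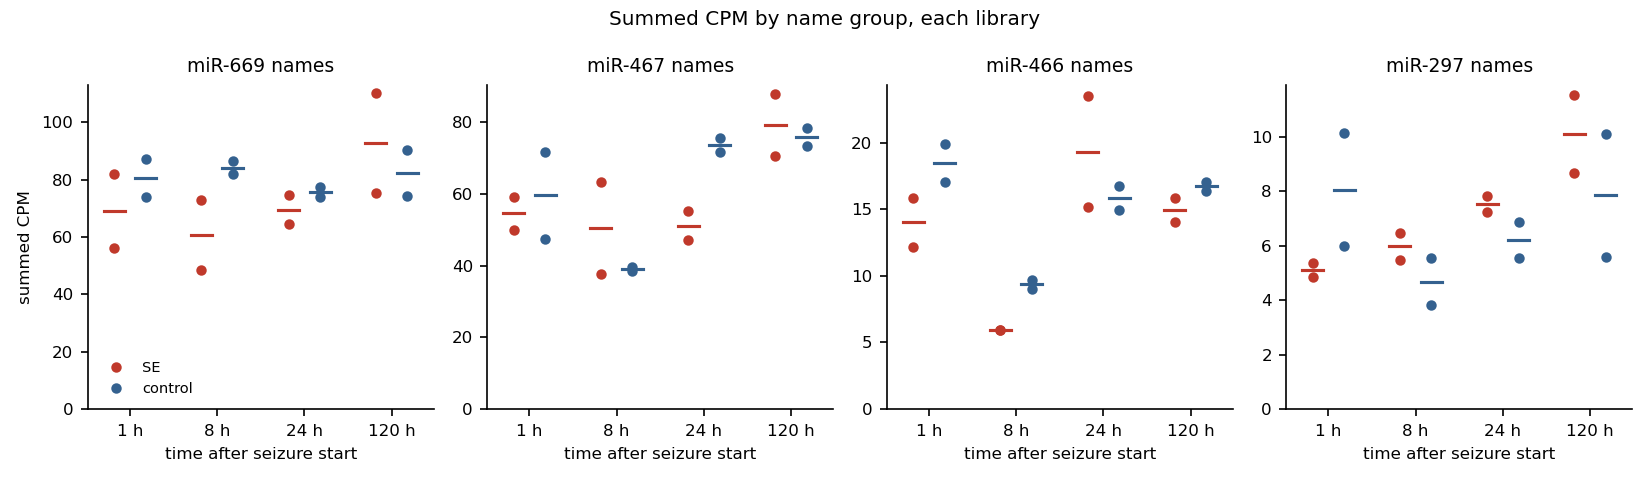
Summed CPM of the rows of each name in each small RNA library by time, SE (red) left of control (blue), with the mean of 2 as a bar. The miR-467 sums at 24 h are 47.0 and 55.1 CPM in SE mice and 71.5 and 75.5 CPM in control mice, and the miR-466 sums are lowest at 8 h in both groups.

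A further difference lay between the libraries at 8 h and those at the other times, SE and control alike. In the 4 libraries at 8 h the 19 tested members had a median log2 ratio of −0.68 to the other 12 libraries, while 644 other microRNAs had a median of −0.13. Within control mice alone the medians were −0.78 and −0.13 (2 libraries at 8 h, 6 at other times). For 6 of 19 members, 31.6%, all 4 libraries at 8 h lay below the other 12, against 15.4% of all features, and for 0 of 19 all 4 lay above, against 7.34% of all features. miR-669o-3p/miR-669a-3p averaged 5.29 CPM at 8 h and 13.0 CPM at the other times, miR-466g 3.67 and 7.84 CPM, and miR-669p-5p/miR-669a-5p 5.74 and 12.2 CPM. miR-669d-5p, miR-669l-5p and miR-466c-5p were the other 3. The most abundant member went the other way, with miR-669c-5p at 51.2 CPM at 8 h and 33.5 CPM elsewhere. The 4 libraries at 8 h had a count on 27 or 28 of the 74 rows, against 34 to 40 in the other 12, at totals of 3171341 to 5822866 and 4102220 to 7683708 counts. Marker sums also differed with these libraries. MicroRNAs of microglia and leukocytes, 4 of 4 detected, summed to 408 to 643 CPM at 8 h and 222 to 303 CPM elsewhere. Most of this sum was miR-146a-5p, at a mean of 226 CPM over the 16 libraries. The others averaged 71.5 (miR-142a-5p), 24.6 (miR-223-3p) and 11.7 CPM (miR-142a-3p), so the sum does not show a shared rise. The 5p arms miR-132-5p and miR-212-5p, induced in active neurons, summed to 1420 to 1736 CPM at 8 h and 977 to 1345 CPM elsewhere. The other arm, miR-132-3p, was counted with the brain microRNAs and ran from 1236 to 3644 CPM over the 16 libraries. The part of these microRNAs in the difference was not tested. These values are a description, since time and batch cannot be told apart.

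**Figure D4:**
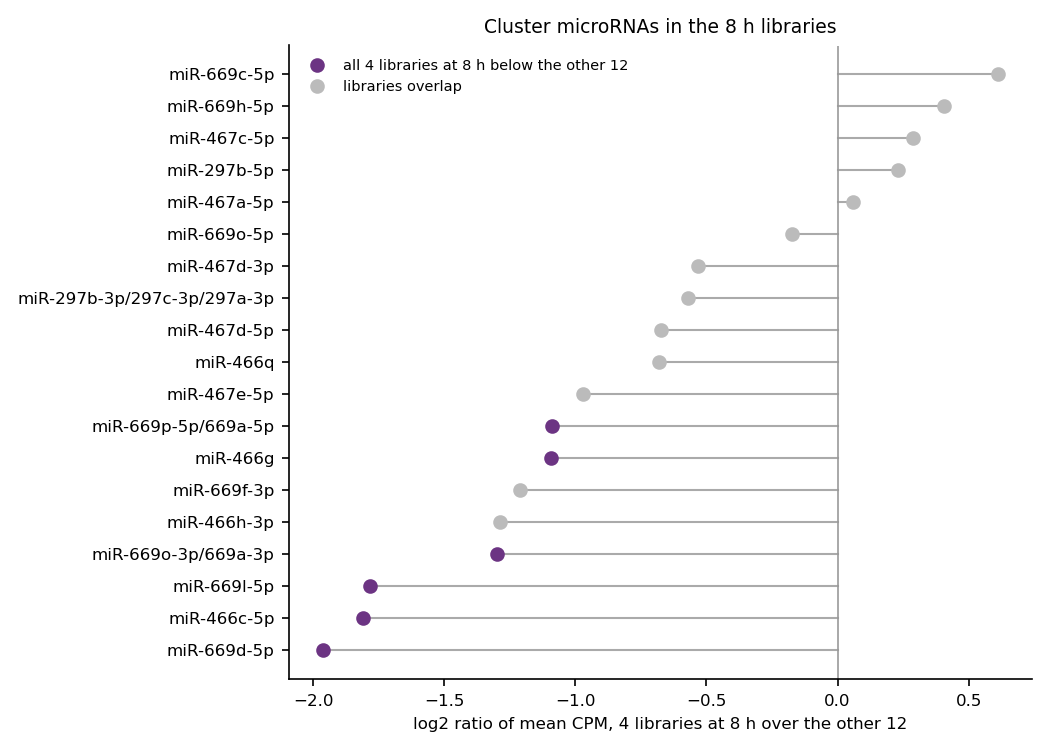
Log2 ratio of mean CPM in the 4 libraries at 8 h to the mean of the other 12 for the 19 tested members, ordered by ratio; dark points mark the 6 members for which all 4 libraries at 8 h lie below the other 12. Ratios run from −1.96 for miR-669d-5p to 0.61 for miR-669c-5p.

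The host gene was measured in the mRNA libraries (8503816 to 28465548 counts). Several of these differed in choroid plexus mRNA: Ttr, the transthyretin gene, was at 6799 and 5406 CPM in SE replicates 1 and 2 at 36 h and 6052 CPM in SE replicate 3 at 120 h, and at 27.0 to 96.2 CPM in the other libraries of these times. Sfmbt2 mRNA was low, at 47 to 140 counts a library. At 1 h it stood at 4.20, 5.94 and 3.83 CPM in SE mice, against 6.24 and 5.62 CPM in control mice. At 8 h it stood at 5.17 and 4.76 CPM in SE mice, against 5.55, 4.33 and 4.50 CPM in control mice. At 36 h the values were 4.10, 4.49 and 3.78 CPM in SE mice, and at 120 h 3.75, 5.08 and 5.23 CPM, against 3.58, 4.07 and 3.66 CPM in the controls that both share.

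The Sfmbt2 groups overlapped at all 4 times. Its log2 fold changes were −0.35 ± 0.27 at 1 h (n = 3 SE, 2 control), 0.04 ± 0.30 at 8 h (n = 2 and 3), 0.13 ± 0.19 at 36 h and 0.32 ± 0.19 at 120 h (n = 3 each), with edgeR adjusted p of 0.999, 0.968, 0.905 and 0.625. Without SE replicate 3 at 120 h the log2 fold change was 0.24 (edgeR adjusted p = 0.781).

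**Figure D5:**
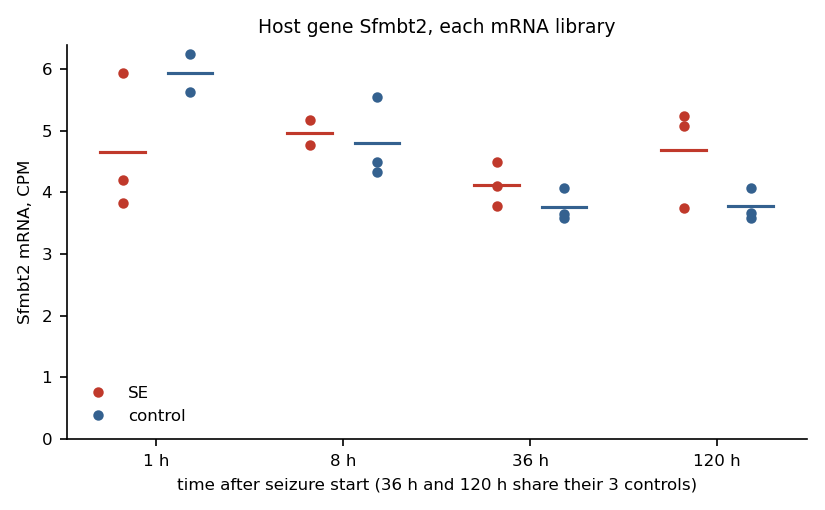
CPM of Sfmbt2 mRNA in each mRNA library, SE (red) left of control (blue), with group means as bars; 36 h and 120 h share their 3 controls. Values lie between 3.58 and 6.24 CPM and the groups overlap at every time.

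The machinery that makes and loads microRNAs was read from a list of 21 genes, of which 19 were tested at each time. Dgcr8, the partner of Drosha (0 to 11 counts a library), and Lin28a did not pass the filter on low counts. Whether the low Dgcr8 count reflects the tissue or the annotation and counting of reads was not tested. With edgeR's quasi-likelihood test 0 of 19 were called at 1 h (0.0799% of all genes were called), 8 h (0%), 36 h (0.0252%) and 120 h (0.0563%), and edgeR's likelihood ratio test and DESeq2 also called 0. At an unadjusted p under 0.05 there were 0 at 1 h (4.39% of all genes), 1 at 8 h (9.47%), 1 at 36 h (7.89%) and 0 at 120 h (9.6%). The median log2 fold change of the list was −0.05, 0.14, −0.03 and 0.02 at the 4 times, against medians between −0.01 and 0.01 over all genes.

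At 8 h this count depended on 1 control library, replicate 1, which the labels place in another batch than the other 4. It also had the least choroid plexus mRNA of the 5, with Ttr at 324 CPM, against 2807 and 2760 CPM in SE mice and 3320 and 1178 CPM in the other control mice, and the part of batch and of choroid plexus in the calls was not tested separately. It is the only library of its batch at 8 h, so a batch covariate takes it out of the SE estimate. That estimate then compares the SE libraries with control replicates 2 and 3. With the batch as a covariate, 4 of 19 were called at 8 h, or 21.1%, against 13.5% of all genes. Leaving that library out makes nearly the same comparison, and 3 were called (Drosha, Ago2 and Ran), against 13.4% of all genes. At 1 h the covariate left 0 called (0.0799% of all genes). Drosha, which makes the first cut of the hairpin, stood at 111 and 125 CPM in SE mice at 8 h, against 148, 165 and 164 CPM in control mice. Both SE libraries were lower than all 3 controls. The log2 fold change was −0.43 ± 0.15 without the covariate (edgeR adjusted p = 0.495) and −0.48 ± 0.11 with it (edgeR adjusted p = 0.0160). Ago2, which loads the mature strand, stood at 169 and 165 CPM in SE mice, against 155, 125 and 123 CPM in control mice (0.43 ± 0.11, edgeR adjusted p = 0.0205). Ran, the GTPase of nuclear export, stood at 99.2 and 88.5 CPM in SE mice, against 83.1, 65.0 and 72.2 CPM in control mice (0.45 ± 0.12, edgeR adjusted p = 0.0265). Dicer1 stood at 75.2 and 83.2 CPM in SE mice, against 79.1, 62.9 and 57.9 CPM in control mice, where replicate 1 falls between the SE values (0.39 ± 0.12, edgeR adjusted p = 0.0462). The fold changes of Ago2, Ran and Dicer1 given here are those with the covariate. Without it edgeR adjusted p was 0.572 for Ago2, 0.547 for Ran and 0.660 for Dicer1. Sfmbt2 under the covariate had a log2 fold change of 0.16 ± 0.34 at 8 h (adjusted p = 0.807).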

How the data were processed

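For the small RNA the authors trimmed adapters with the FASTX-Toolkit, cut 4 bases off either end of the reads and counted with Oasis 2.0, and the counts were deposited raw; the genome build behind them is not given in the sources used here. mRNA counts per Ensembl gene were deposited raw, from HISAT2 2.1.0 on NCBIM37 and HTSeq. Rows were filtered with filterByExpr, normalized by TMM and tested with edgeR 4.0.16 (R 4.3.3), quasi-likelihood, 16 small RNA libraries in 1 model of 8 groups, mRNA libraries by time, with Benjamini-Hochberg adjustment over all features and a two-sided threshold of 0.05. Standard errors are the absolute log2 fold change divided by the square root of F. Alternatives used edgeR's likelihood ratio test, DESeq2 1.42.0, RLE factors, other filters and fewer libraries. Fits were tested on simulated data in which 200 features were changed, some by a log2 of 1 and the rest by a log2 of 2. Neither count below is thus out of all 200. At a single time the small RNA fit found 8 to 13 of those changed by a log2 of 1. It found 47 to 53 of those changed by a log2 of 2. In the mean of 4 times it found 72 and 86. A log2 change of 1 at a single time would thus mostly be missed. No pair of the 120 pairs of small RNA libraries was identical. Labels number the samples of each group separately, and they were taken as separate mice, so that p-values rest on the spread between mice. For the small RNA this spread was estimated over all 8 groups together, not from the mice of 1 time alone. Members in full were those past the threshold, the 8 most abundant, and the 2 with the smallest p at each time and in the mean. Members and lists were chosen with earlier results of these data known.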

Additional observations from a re-analysis of the deposited data

How the results depend on the processing

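The count of cluster microRNAs called stayed at 0 in all 90 alternative counts, among them both other tests, RLE factors, microRNA rows alone, no filter (52 members tested), libraries of 1 time alone, an additive model and the fits without 1 library. The replicate block gave 0 calls as well. Same-numbered SE and control libraries did not deviate together (r of 0.18, −0.20, −0.04 and −0.08 at 1, 8, 24 and 120 h). With 2 libraries a group, a low r cannot show whether the numbers pair the mice. The pairing crossed at 8 h, added after seeing the data, called 0 of 19 members and 6 of 1103 features. For the mRNA the replicate block called 0 of the pathway genes at every time.

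The 8 h log2 ratio of the summed CPM was −0.24 relative to microRNA counts alone, −0.24 on total counts without TMM factors, and 0.18 without miR-669c-5p. Leaving out 1 library moved the ratios between −0.43 and −0.04 at 1 h, −0.20 and −0.11 at 8 h, −0.27 and −0.16 at 24 h and 0.01 and 0.22 at 120 h. The mean fold change over times changed sign between −0.18 and 0.15 for miR-467d-5p, −0.61 and 0.055 for miR-467a-5p and −0.065 and 0.13 for miR-669o-3p/miR-669a-3p. At 120 h miR-297b-3p/miR-297c-3p/miR-297a-3p ran between −0.0051 and 1.29. At 1 h the joint miR-297 3p row ran between −0.99 and −0.34. Sfmbt2 at 8 h ran between −0.026 and 0.16. The pathway count at 8 h ran from 0 to 3, the 3 being without control replicate 1, and was 4 with the batch as a covariate. Counts under 20 in several rows limit what can be called, and the cause of these shifts was not tested.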
